A study of Mus musculus with 24 samples.

Results

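The PYHIN genes described here are 10 members of the mouse family, chosen by name: Aim2, Ifi203, Ifi204, Ifi206, Ifi207, Ifi208, Ifi209, Ifi211, Ifi213 and Ifi214. All 10 were listed among the 35492 gene symbols measured by RNA-seq in 24 libraries of T cells, and 9 of them were abundant enough to be tested. Naive CD4+ CD62L+ T cells were sorted from spleen and lymph nodes of C57BL/6J mice and activated on plate-bound anti-CD3 and anti-CD28. They were transfected with 2'3'-cGAMP, a ligand of the DNA sensing adaptor STING, or with a control dinucleotide without that activity. The cells were then polarized into TH9 cells with TGF-β, IL-4 and anti-IFN-γ, or into TH1 cells with IL-12 and anti-IL-4. RNA was taken after 16 or 48 h of polarization. Each of the 8 labels, made of subset, time and treatment, is carried by 3 libraries. The study describes its replicates as coming from separate experiments. No cells that lack STING are among these libraries.

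The subset markers did not follow the labels. Il9, the TH9 cytokine, exceeded Tbx21, the TH1 transcription factor, in 8 of 12 libraries labelled TH9 and in 4 of 12 labelled TH1. The treatment labels are in doubt as well. The mean log2(TPM + 1) of 40 interferon-stimulated genes, described below, differed by 1.46 to 2.97 among the 3 libraries of 1 label. When the libraries were put in the order of their sample records, a look taken after seeing the data, the second library had the higher mean in each of 12 successive pairs, by 1.29 to 2.92, although most of these pairs carry 1 label. Within each of these pairs the same subset marker was higher in both libraries. Tbx21 and Il9 led by turns from pair to pair, a pattern that does not follow the deposited labels. No condition was taken from that order and no library was moved to another label. Comparisons by label are those of the libraries as labelled, and another assignment of the libraries would change them. For this reason the relations that need no label come first, and the comparisons by label come last. As the doubt touches every label, the comparisons cannot be repeated on undoubted libraries alone. The libraries also differed in composition. The 20 most abundant symbols took from 19.7% to 90.2% of the TPM (a transcript's share of a library, corrected for its length and scaled to the same total in each), and 8923 to 14068 symbols reached 1 TPM. The T cell markers, led by the T cell receptor gene Trac (median 319 TPM), summed to between 195 and 1734 TPM in each library. Of 9 myeloid markers, Lyz2, Csf1r, Adgre1, Fcgr1 and Cd14 were under 1 TPM in every library, and the list summed to between 0.803 and 10.0 TPM. The B cell markers summed to between 0.506 and 7.99 TPM and the NK cell markers to between 0.365 and 3.77 TPM.

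PYHIN proteins pair a pyrin domain, which binds other pyrin domains, with a HIN domain, which binds DNA. AIM2 uses them to recognize DNA in the cytosol and to recruit the adaptor ASC, which leads to activation of caspase-1. Many of the other mouse members are known as interferon-inducible genes of macrophages and lymphocytes, and the family has expanded differently in mouse and human, where IFI16 and MNDA belong to it. A common feature of interferon-inducible promoters is the interferon-stimulated response element, a DNA sequence built from repeated GAAA that is bound by interferon regulatory factors.

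The 10 genes lie in 1 cluster on chromosome 1, in the interval chr1:173350879-173942672 of GRCm38 (GENCODE annotation), which spans 592 kb. All are annotated as protein coding. Aim2 is at the proximal end (chr1:173350879-173466040, plus strand) and Ifi203 at the distal end (chr1:173920407-173942672, minus strand). Promoters were taken from RefSeq (GRCm38.p6), with 250 bases before and 50 after an annotated start, and were found for 9 of the 10 members, Ifi204 being the exception. The core searched was GAAANNGAAA, on both strands. It was present in 7 of these 9 members, against 3.99% of the 27025 genes in the same table. The members are not separate cases, as some of their promoters are close copies. Ifi206 shares a run of 182 bases with Ifi208 and of 135 bases with Ifi213. The promoter of a further annotated start of Ifi203 (chr1:173942623-173942922) had no match. The matched stretches are shown because the members with and without them can be set beside their expression below. Each line has 50 bases, 5′ to 3′ on the strand of the gene, with the 10 bases of the match in capitals.
Ifi206: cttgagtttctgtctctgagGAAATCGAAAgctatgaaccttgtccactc
Ifi208: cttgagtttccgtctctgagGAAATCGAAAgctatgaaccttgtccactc
Ifi214: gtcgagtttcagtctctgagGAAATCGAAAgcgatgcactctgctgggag
Ifi211: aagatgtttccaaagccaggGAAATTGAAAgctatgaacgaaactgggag
Ifi203: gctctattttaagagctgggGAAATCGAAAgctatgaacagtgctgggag
Ifi207: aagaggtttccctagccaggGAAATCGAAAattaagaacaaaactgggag
Ifi209: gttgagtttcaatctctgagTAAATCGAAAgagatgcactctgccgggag

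These windows lie at chr1:173491329-173491378 (Ifi206, minus strand), chr1:173673587-173673636 (Ifi208, plus), chr1:173536007-173536056 (Ifi214, minus), chr1:173913054-173913103 (Ifi211, minus), chr1:173942498-173942547 (Ifi203, minus), chr1:173741821-173741870 (Ifi207, minus) and chr1:173630760-173630809 (Ifi209, plus). The window of Ifi213 was identical to that of Ifi208. That of Ifi203 was identical in sequence to one of the neighbouring family gene Mndal, which lies elsewhere, at chr1:173880194-173880243. The match began between 79 bases (Ifi214) and 35 bases (Ifi203) upstream of the start. Ifi209 had no full match. The stretch shown differs from the core by G1T, counting from 1 at the 5′ end of the core and giving the base of the core first, and another stretch further upstream differs by G7C. Aim2 had no match, and its 250 bases upstream of the RefSeq start (chr1:173420354-173420603, plus strand) are as follows.
Aim2: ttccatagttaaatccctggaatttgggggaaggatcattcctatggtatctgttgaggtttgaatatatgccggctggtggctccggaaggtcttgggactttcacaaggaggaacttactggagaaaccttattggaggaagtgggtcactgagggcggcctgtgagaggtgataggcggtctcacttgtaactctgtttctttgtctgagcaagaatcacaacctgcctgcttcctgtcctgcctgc
A match describes the letters in this window only, and binding was not measured.

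Close copies limit how well some members can be told apart. kallisto divides reads that fit several transcripts by estimation. In the GENCODE transcripts, 78.9% of the 31-base words of Ifi211 also occur in another gene, with 49.5% of them in the family gene Ifi205 and 38.6% in Ifi204. Ifi209 shares 46.8% of its words with Ifi214, and Ifi208 shares 30.7% with Ifi213. Aim2 shares 4.89% with any other gene. The annotated span of Mndal overlaps Ifi211 and Ifi203 on the same strand. The annotation the authors quantified against is not given in the sources used here, so these shares describe the gene models and not the deposited estimates.

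Aim2, the DNA sensor of the inflammasome, was present in every library, at 4.02 to 54.9 TPM with a median of 19.2 TPM. Under the TH9 16h label it had 19.2, 54.9 and 54.1 TPM in cGAMP libraries, against 44.6, 40.3 and 23.2 TPM in control libraries. Under TH1 16h it had 19.9, 27.3 and 29.6 TPM with cGAMP, against 28.2, 18.6 and 26.5 TPM in control. The treatment labels overlapped at 16h in both subsets. Under TH9 48h the cGAMP libraries had 14.5, 19.2 and 11.7 TPM, all above the control libraries at 8.60, 4.02 and 7.99 TPM. Under TH1 48h they had 24.5, 13.3 and 5.06 TPM, against 12.1, 14.3 and 8.24 TPM in control, and the groups overlapped.

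Ifi209 had the highest mean of the family, 26.5 TPM, and it ranged more widely, from 0.460 to 107 TPM. Under TH9 16h it had 107, 7.52 and 101 TPM in cGAMP libraries, against 0.513, 9.21 and 18.6 TPM in control libraries. Under TH1 16h it had 35.9, 4.63 and 73.3 TPM with cGAMP, against 29.9, 85.6 and 6.79 TPM in control. Libraries of 1 label thus differed by an order of magnitude, and under each of these labels high and low libraries stood side by side. Under TH9 48h it had 41.1, 0.613 and 3.35 TPM with cGAMP, against 2.47, 16.5 and 2.09 TPM in control. Under TH1 48h it had 3.86, 14.3 and 34.9 TPM with cGAMP, against 6.37, 30.8 and 0.460 TPM in control. The treatment labels overlapped in all 4 conditions.

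Ifi203, at the other end of the cluster from Aim2, was present in every library at 2.61 to 105 TPM. Under TH9 16h it had 105, 10.7 and 50.7 TPM with cGAMP, against 5.27, 10.4 and 31.6 TPM in control. Under TH1 16h it had 21.1, 11.8 and 23.0 TPM with cGAMP, against 52.4, 68.4 and 10.5 TPM in control. The same cGAMP library, replicate 1 of TH9 16h, held the highest value of Ifi203 and of Ifi209. Under TH9 48h Ifi203 had 11.5, 3.03 and 5.10 TPM with cGAMP, against 3.56, 8.59 and 5.11 TPM in control. Under TH1 48h it had 6.92, 12.8 and 25.9 TPM with cGAMP, against 9.31, 12.7 and 2.61 TPM in control.

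**Figure D1:**
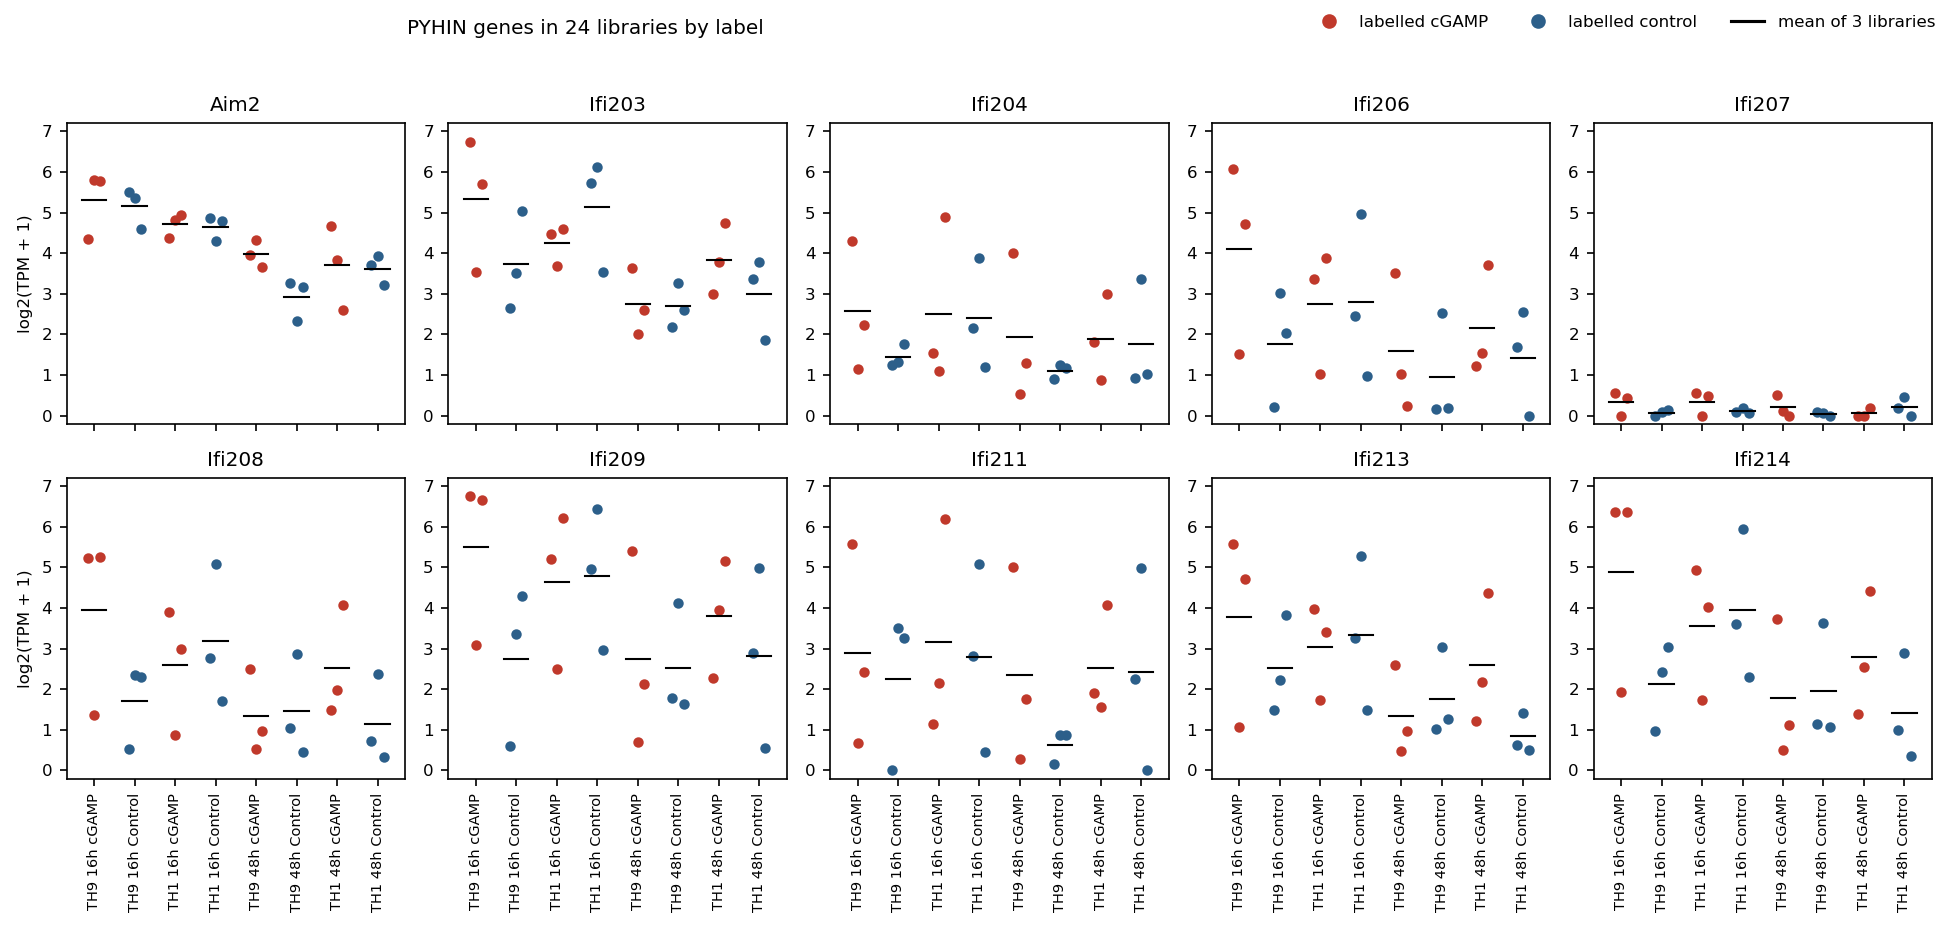
Expression of the 10 PYHIN genes as log2(TPM + 1), with 1 point per library, 3 libraries for each of the 8 labels on the horizontal axis (cGAMP in red, control in blue) and a line at the mean. Aim2 stayed between 4.02 and 54.9 TPM, whereas Ifi209 covered 0.460 to 107 TPM and Ifi207 did not pass 0.480 TPM.

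The remaining members were lower on the median. Ifi214 ranged from 0.280 to 81.2 TPM with a median of 4.57 TPM, Ifi208 from 0.263 to 37.1 TPM with a median of 3.43 TPM, and Ifi211 from 0 to 72.0 TPM with a median of 3.10 TPM. Ifi213 ranged from 0.383 to 46.4 TPM (median 2.93 TPM) and Ifi206 from 0 to 66.5 TPM (median 2.67 TPM). Ifi204, whose mouse protein p204 is a DNA sensor of macrophages, ranged from 0.446 to 28.4 TPM with a median of 1.47 TPM. Ifi206 was listed at 0 in 1 library and Ifi211 in 2. Ifi207 was listed at 0 in 8 libraries, reached at most 0.480 TPM and was the 1 member left out of the tests. Of the family genes outside the 10 members, Mndal was abundant (6.28 to 140 TPM), Ifi205 reached at most 1.52 TPM and Ifi202b at most 0.177 TPM.

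The balance within the family changed from library to library. The 10 members summed to between 13.3 and 528 TPM. Aim2 took between 3.23% and 80.9% of that sum and was the highest member in 12 libraries, Ifi209 in 10 and Ifi203 in 2. The sum reached at most 90.9 TPM where Aim2 was highest and was 56.4 TPM or more in the other libraries. At 80.9%, in the library labelled TH9 16h Control replicate 1, the 9 Ifi members summed to 10.5 TPM, and at 3.23%, in TH1 48h cGAMP replicate 3, they summed to 152 TPM. In bulk libraries, fewer cells that express a gene and less RNA in each cell cannot be told apart.

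The Ifi members followed interferon-stimulated genes across the libraries. A list of 40 such genes outside the family, among them Isg15, Irf7, Mx1, Oas2 and Usp18, served as a measure of interferon signaling. Its mean log2(TPM + 1) ranged from 1.29 to 5.07 over the 24 libraries, with a median of 3.21. The 6 highest libraries were 3 labelled cGAMP (TH9 16h replicates 1 and 3, TH1 16h replicate 3) and 3 labelled control (replicate 2 of TH1 16h, TH9 16h and TH1 48h). Of the 9 members tested, 8 were positively correlated with the list (permutation test with 100000 resamples, two-sided, Benjamini-Hochberg over the 15720 genes tested). Among the 15680 tested genes outside the list, 0.702% were called in the same way. The permutation treats the 24 libraries as exchangeable, although 3 share each label.

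Ifi206 had the highest correlation with the list (r = 0.86, rho = 0.85, n = 24, permutation p = 1e-05, the smallest that 100000 resamples can give, adjusted p = 0.00238). Ifi211 followed (r = 0.83, rho = 0.85, permutation p = 2e-05, adjusted p = 0.00408), and then Ifi209 (r = 0.80, rho = 0.79, permutation p = 1e-05, adjusted p = 0.00238). The r of Ifi208, Ifi214 and Ifi204 was 0.78, 0.78 and 0.77, that of Ifi213 was 0.72, and that of Ifi203 was 0.70 with an adjusted permutation p of 0.0219. The share of tested genes with a lower r was 99.3% for Ifi203 and greater for the other members called. Ifi207, which was not tested, had r = 0.71 at its low level.

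Aim2 did not pass the test (r = 0.25, rho = 0.23, n = 24, permutation p = 0.242, adjusted p = 0.770), and its r exceeded that of 71.6% of the tested genes. After each library was scaled by the upper quartile of its tested genes, the r of Aim2 was -0.015, and the 8 Ifi members still passed, with r between 0.71 and 0.86. A unit step of the list mean on the log2 scale went with 1.43 for Ifi211, 1.39 for Ifi209, 1.28 for Ifi206 and 1.26 for Ifi214, against 0.21 for Aim2. Ifi209 followed the list with no full match to the core in its promoter window, and Aim2 had neither a match nor the correlation. Whether the core bears on the correlation was not tested. The summed markers of myeloid, NK and B cells had r of 0.26, 0.41 and -0.14 with the list over the same libraries, and their part in the relation was not tested.

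**Figure D2:**
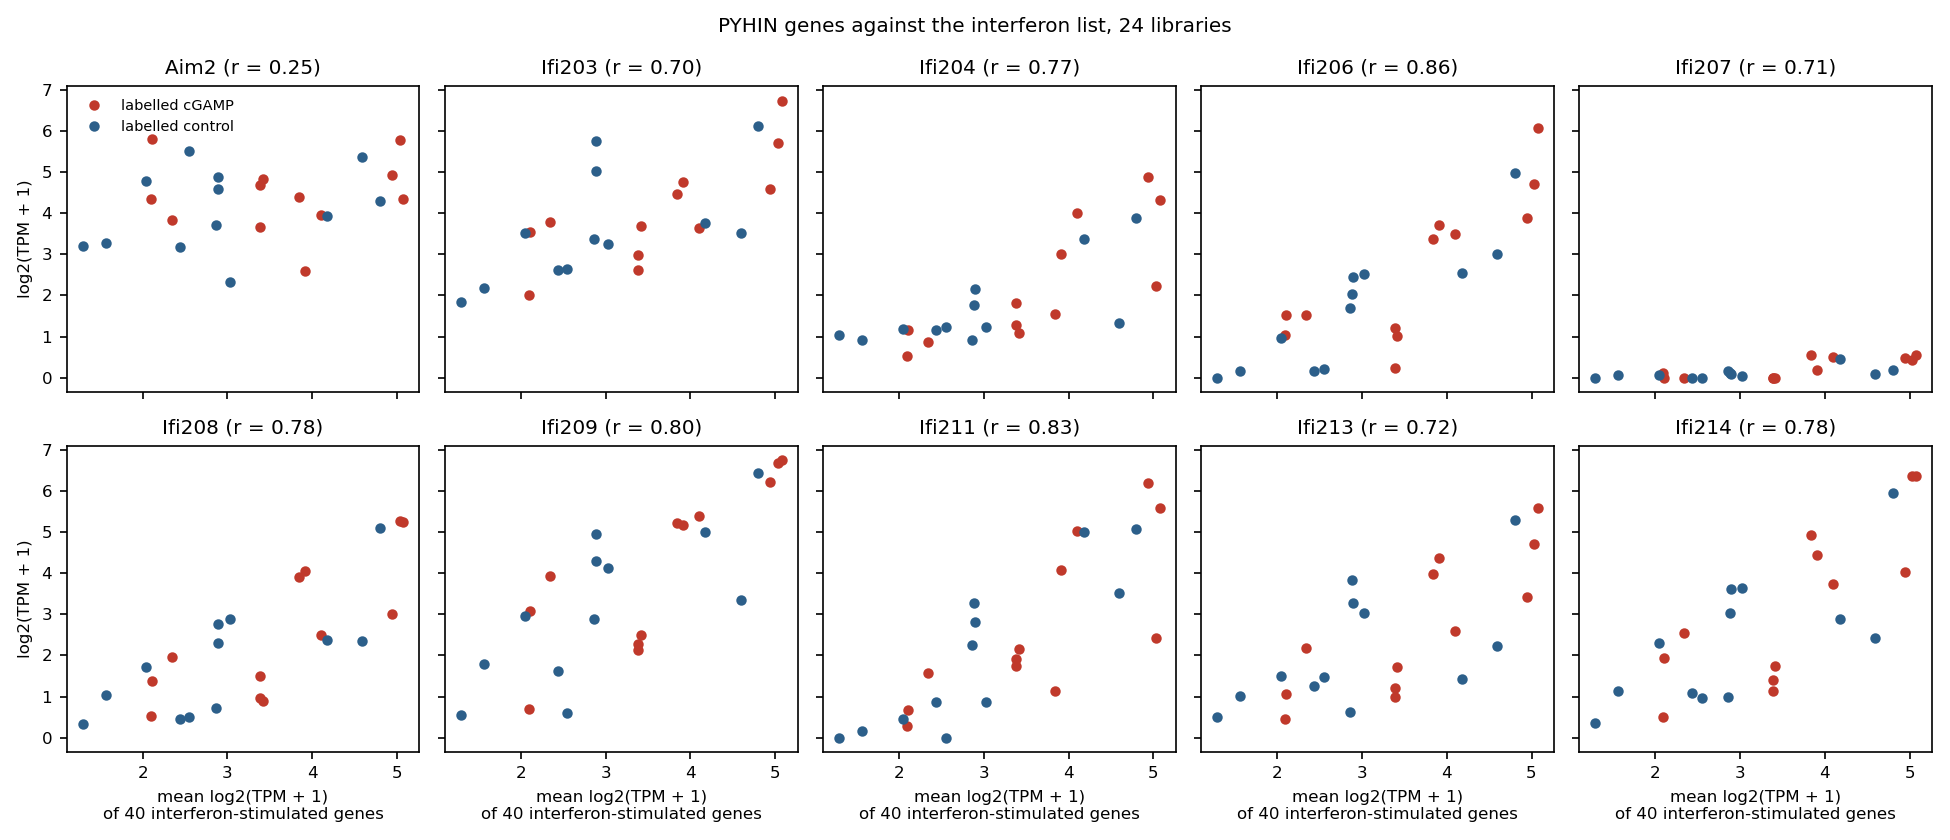
Level of each PYHIN gene (vertical axis, log2(TPM + 1)) against the mean log2(TPM + 1) of 40 interferon-stimulated genes (horizontal axis) in 24 libraries, labelled cGAMP in red and control in blue. The Ifi genes climb with the list, Ifi206 with r = 0.86, while Aim2 is spread evenly with r = 0.25.

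The relation was checked without the libraries that carry most weight. Leaving out the 2 libraries farthest from the median of the list (TH9 16h cGAMP replicate 1 and TH1 48h Control replicate 3) left 6 members called. Ifi203 then had r = 0.60 (adjusted permutation p = 0.310) and Ifi213 r = 0.65 (adjusted permutation p = 0.170), so the calls of these members rest on those libraries. By Spearman's rank correlation 7 members were called, Ifi203 being lost at an adjusted permutation p of 0.0615. Within the 8 libraries of 1 replicate number the r of the 8 Ifi members lay between 0.72 and 0.92 for number 1, between 0.62 and 0.91 for number 2 and between 0.76 and 0.90 for number 3. After adjustment over all genes 0 members were called in each of these sets by the exact permutation test, whose smallest p is 2.48e-05, while 8, 5 and 8 members had an unadjusted p under 0.05.

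The relation was also present inside the labels. When each library was expressed as its deviation from the mean of its 3 libraries, an alternative chosen after seeing the data, the r of the 8 Ifi members with the list was 0.73 (Ifi213) to 0.86 (Ifi206). By shuffling within labels, 2 members passed after adjustment over all genes (Ifi206 and Ifi211), against 0.185% of the other genes, and 8 had an unadjusted permutation p under 0.05. Aim2 had r = -0.24 in this form. Libraries of the same label thus differed in the Ifi members together with the list. With the labels in doubt, libraries of 1 label may differ in treatment. This form therefore cannot separate the relation from treatment.

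The spread inside labels was large beside the spread between them. For 7 of the 8 tested Ifi members the median SD of the log2 values within a label exceeded the SD of the 8 label means. It was 2.37 against 0.77 for Ifi211, 1.92 against 1.15 for Ifi209 and 1.59 against 1.22 for Ifi214. Ifi203 was the exception, with 0.95 against 1.02. Aim2 had the opposite balance, 0.43 within a label against 0.83 between label means. With the labels in doubt, libraries of different conditions may share a label. These values therefore describe the libraries as labelled and not a trait of the genes.

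The Ifi members also followed one another. The 28 pairs of the 8 tested Ifi members had Pearson r between 0.62 and 0.99 with a median of 0.87 over the 24 libraries, given as a description since all share the same libraries. The closest pair was Ifi208 and Ifi214 (r = 0.99), which lie on either side of Ifi209 in the cluster. Ifi204 and Ifi211 were nearer to each other (r = 0.91) than Ifi204 was to any other tested member, the next being Ifi209 at 0.78, a pair in which 38.6% of the words of Ifi211 occur in Ifi204. Aim2 stood apart, with r between 0.062 and 0.28 with the 9 Ifi members.

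The members also differed in proportion. The ratio of Ifi211 to Ifi214, which share 0.173% of the words of Ifi211, was, in length-corrected TPM, 4.80 in TH1 48h Control replicate 2 and 4.70 in TH1 16h cGAMP replicate 3. It was 0 in TH9 16h Control replicate 1 and TH1 48h Control replicate 3, where Ifi211 was listed at 0. Above 0, it was lowest at 0.0407 in TH1 16h cGAMP replicate 1 and 0.0543 in TH9 16h cGAMP replicate 3. Of the words of Ifi211, 78.9% occur in some other gene, which limits its estimate. Ifi211 was at 72.0 TPM in TH1 16h cGAMP replicate 3, where Ifi214 was at 15.3 TPM. In TH9 16h cGAMP replicate 3 Ifi211 was at 4.39 TPM and Ifi214 at 80.8 TPM. These libraries were singled out after their values were seen.

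**Figure D3:**
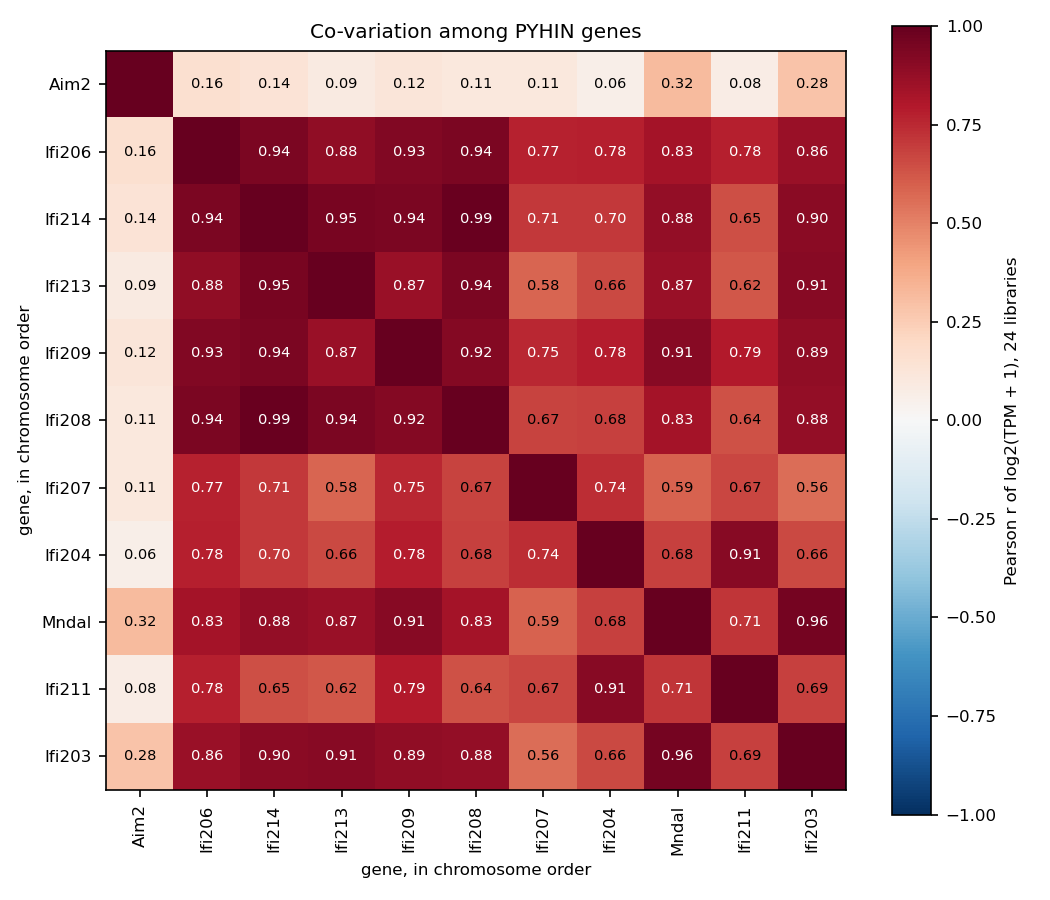
Pearson correlation of log2(TPM + 1) over 24 libraries for each pair of PYHIN genes, with the genes on both axes in their order on the chromosome and Mndal added. The 28 pairs of tested Ifi members lie between 0.62 and 0.99, and the row of Aim2 stays at 0.28 or below with the Ifi members.

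Outside the 10 members, the genes with the most similar pattern were sought among 11022 genes with a mean of at least 2 TPM. Those nearest to Ifi208 were Ifit3 (r = 0.96) and Rtp4 (r = 0.95), and both were also among the 3 nearest to Ifi213 and Ifi214. Ifi204 was nearest to the chemokine gene Cxcl10 (r = 0.89), to the antiviral GTPase gene Mx1 (r = 0.84) and to Ddx60 (r = 0.83). Ifi206 was nearest to Gm6545 (r = 0.93), Slfn8 (r = 0.93) and Rtp4 (r = 0.92). Ifi209 was nearest to Slfn8 (r = 0.92), to the granzyme B inhibitor gene Serpinb9 (r = 0.92) and to Mndal (r = 0.91). Ifi203 was nearest to Mndal (r = 0.96), to Serpinb9 (r = 0.91) and to Tapbp (r = 0.90), the tapasin of MHC class I loading. The annotated span of Mndal overlaps Ifi203, and its promoter holds a copy of the Ifi203 window at another position. Ifi211 was nearest to Phf11a (r = 0.91), Ifitm3 (r = 0.87) and Ms4a4c (r = 0.85).

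Aim2 was nearest to genes of another kind, Trappc10 (r = 0.95), Mbd1 (r = 0.95) and Pofut1 (r = 0.94), a vesicle tethering factor, a methyl-DNA binding protein and an O-fucosyltransferase. None of these is on the interferon list. Aim2 also followed the composition of the libraries, with r = 0.90 with the log2 upper quartile of the tested genes and r = 0.82 with the number of symbols at 1 TPM. With these measures the Ifi members had r of 0.37 (Ifi203, upper quartile) or less. With the level of Gm10800, one of the abundant symbols, r was -0.72 for Aim2, -0.46 for Ifi203 and between -0.31 and -0.13 for the other Ifi members. The part of library composition in the pattern of Aim2 was not tested beyond the upper-quartile scaling above.

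The partners of these proteins were examined as a list of DNA sensing and inflammasome genes. Leaving out Zbp1, which the interferon list holds, 16 of 22 listed genes were tested, and 2 of the 16 were positively correlated with the interferon list, against 0.702% of the tested genes outside that list. These were Casp4, the sensor caspase of the noncanonical inflammasome (r = 0.69, adjusted permutation p = 0.0234), and the cytokine gene Il18 (r = 0.72, adjusted permutation p = 0.00699). None was negatively correlated. The median r of the 16 genes was 0.52, beside 0.16 for all tested genes. Pycard, which encodes the adaptor ASC, was present at 3.60 to 66.3 TPM with r = 0.035. Casp1, the caspase that AIM2 activates through ASC, was low at 0 to 5.41 TPM, with r = 0.62 and an adjusted permutation p of 0.114. Tmem173, which encodes STING, was at 6.33 to 70.3 TPM with r = 0.46 (adjusted permutation p = 0.709), and Mb21d1, which encodes cGAS, at 0.936 to 10.6 TPM with r = 0.62 (adjusted permutation p = 0.139). By label, with Zbp1 included, 0 of 17 tested genes of the list were called by limma in the average of cGAMP against control, where 0 had an unadjusted p under 0.05, and 10 were called at 48h against 16h, all lower, against 64.5% of all genes called lower.

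The study asked whether cGAMP changes gene expression in each subset and at each time. By label, 0 of the 9 tested members were called in each of the 4 comparisons of cGAMP with control (limma on log2(TPM + 1), 3 against 3 libraries, Benjamini-Hochberg over 15720 genes). The share of all genes called was 0.00636% for TH1 16h, a single gene, and 0% for TH9 16h, TH1 48h and TH9 48h. With the treatment labels in doubt, these counts do not show that cGAMP left the family unchanged. Successive pairs in the order of the sample records were also looked at after seeing the data. Ifi203, Ifi204, Ifi208, Ifi209, Ifi211, Ifi213 and Ifi214 were higher in the second library of every pair. Ifi206 was higher there in all pairs but the last, and Aim2 went both ways. Whether these pairs are control and cGAMP was not tested. The number of members with an unadjusted p under 0.05 was 2 under TH9 16h, 0 under TH1 16h, 1 under TH9 48h and 0 under TH1 48h. All folds below are on the log2(TPM + 1) scale, which understates changes of low genes.

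Under TH9 16h all 9 members had a log2 fold change above 0, with a median of 1.59 beside -0.24 for all genes. The smallest p belonged to Ifi214, at 2.74 ± 1.20 (SE, limma adjusted p = 0.539), with 81.2, 2.81 and 80.8 TPM in cGAMP libraries, against 0.967, 4.32 and 7.17 TPM in control libraries. Replicates 1 and 3 with cGAMP were high, and replicate 2 lay within the control range. The median was 0.89 without cGAMP replicate 1, 1.05 without Control replicate 1 and 2.63 without cGAMP replicate 2, with 8 of 9 members above 0 each time. Under TH1 16h 3 of 9 members were above 0, with a median of -0.14 beside -0.03 for all genes, and the smallest p was that of Ifi203 (-0.88 ± 0.78, limma adjusted p = 0.785). Single libraries turned the direction there. The median was -1.06 without Control replicate 3, -0.80 without cGAMP replicate 3 and -0.43 without cGAMP replicate 1, but 0.52 without cGAMP replicate 2 and 0.66 without Control replicate 2.

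Under TH9 48h 6 of 9 members were above 0, with a median of 0.22 beside 0.50 for all genes. After upper-quartile scaling that median was -0.49 beside -0.02. On unscaled TPM it was -0.38 without cGAMP replicate 1, -0.14 without Control replicate 1 and 0.03 without Control replicate 3. It was 0.52, 0.77 and 0.89 without cGAMP replicate 3, Control replicate 2 and cGAMP replicate 2. No direction can thus be given for the libraries as labelled. With the treatment labels in doubt, this does not show that the response to cGAMP itself lacked a direction. The smallest p there was that of Aim2 (1.07 ± 0.48 SE, limma adjusted p = 0.487), whose cGAMP libraries were all above control, as given above. Under TH1 48h all 9 members were above 0, with a median of 0.84 beside -0.12 for all genes, and the smallest p was that of Ifi213 (1.74 ± 1.05 SE, limma adjusted p = 0.953). Ifi213 had 1.33, 3.55 and 19.7 TPM with cGAMP, against 0.550, 1.68 and 0.429 TPM in control, and replicate 1 with cGAMP lay below replicate 2 in control. The median of the members was 0.025 without Control replicate 3, with 5 of 9 above 0, and 0.39 without cGAMP replicate 3, with 6 of 9 above 0. It was 1.27 without cGAMP replicate 1 and 1.39 without Control replicate 2.

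Averaged over the 4 conditions, 12 against 12 libraries, 0 of the 9 members were called, 0 had an unadjusted p under 0.05, and 0% of all genes were called by limma. All 9 members had a log2 fold change above 0, from 0.34 ± 0.24 (SE) for Aim2 to 0.95 ± 0.68 for Ifi209 and 0.92 ± 0.59 for Ifi206, each with an adjusted p of 1.00. The median of the members was 0.71 beside 0.01 for all genes, and the 40 interferon-stimulated genes, all above 0 and 0 of them called, had a median of 0.77. The members were above 0 in this average under upper-quartile scaling too, with a median of 0.72. When replicate 1 of TH9 48h cGAMP was left out the median was 0.41, leaving out replicate 1 of TH9 16h cGAMP gave 0.46, and leaving out replicate 3 of TH1 16h Control gave 0.42, with all 9 members above 0. Ifi203 had a lowest, median and highest value of 3.03, 12.3 and 105 TPM in the 12 libraries labelled cGAMP, against 2.61, 9.85 and 68.4 TPM in the 12 labelled control. The groups overlapped over nearly their whole range. With the treatment labels in doubt, each arm may hold libraries of both treatments. The overlap and the lack of calls therefore do not show that cGAMP left the members unchanged.

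TH9 against TH1 gave 0 called members, 0 with an unadjusted p under 0.05 and 0% of all genes by limma. With the subset labels in doubt as well, these counts do not show that the subsets were alike. Of the 9 members 1 was above 0, Aim2 at 0.17 ± 0.24 (SE), and the median was -0.24 beside 0.08 for all genes. With 1 library left out it lay between -0.48 (TH9 48h cGAMP replicate 1) and 0.083 (TH9 16h cGAMP replicate 2). The smallest p was that of Ifi203 (-0.43 ± 0.39 SE, limma adjusted p = 1.00). The Ifi members lay between -0.68 ± 0.75 for Ifi211 and -0.11 ± 0.53 for Ifi213. The cGAMP effect in TH9 minus that in TH1 gave 0 called members by limma, 0 with an unadjusted p under 0.05 and 0% of all genes. The effect at 48h minus that at 16h gave the same member counts, with 0.00636% of all genes. Aim2 had the smallest p in both, with a difference of 0.53 ± 0.48 (SE) on the log2 scale for TH9 minus TH1 and of 0.47 ± 0.48 for 48h minus 16h.

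Comparing 48h with 16h on unscaled TPM, 5 of the 9 members were called and all 5 were lower, against 64.9% of all genes called and 64.5% called lower by limma. The share of members was thus below the background. The libraries labelled 16h are the earlier sample records and those labelled 48h the later ones. With the time labels in doubt too, this contrast cannot be told apart from one of earlier against later records. The median log2 fold change was -1.40 for the members and -0.81 for all genes. Aim2 had a lowest, median and highest value of 4.02, 11.9 and 24.5 TPM at 48h, against 18.6, 27.7 and 54.9 TPM at 16h (-1.40 ± 0.24 SE, adjusted p = 8.64e-05). Ifi203 was at 2.61, 7.75 and 25.9 TPM, against 5.27, 22.1 and 105 TPM (-1.54 ± 0.39 SE, adjusted p = 0.00186). Ifi214 (-1.65, adjusted p = 0.0195), Ifi213 (-1.53, adjusted p = 0.0145) and Ifi208 (-1.25, adjusted p = 0.0399) were also called. Ifi206, Ifi209, Ifi211 and Ifi204 were not, at -1.32, -1.45, -0.80 and -0.56.

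This comparison moved with the scaling of the libraries. The upper quartile of the tested genes was 4.46 to 17.9 TPM in the libraries labelled 48h, against 13.8 to 34.7 TPM in those labelled 16h. After upper-quartile scaling 0 of the 9 members were called by limma, 0 had an unadjusted p under 0.05, and 282 genes were called. Aim2 then had -0.34 ± 0.17 (SE, limma adjusted p = 0.298), Ifi203 -0.50 ± 0.46 and Ifi214 -0.78 ± 0.72, and Ifi204 changed sign to 0.23 ± 0.53. Without the 20 most abundant symbols 0 members were called and 1 had an unadjusted p under 0.05. Ifi208 lost its call when any 1 of 15 of the 24 libraries was left out, with adjusted p up to 0.0830, while Aim2, Ifi203, Ifi213 and Ifi214 kept theirs in all 24 fits.

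**Figure D4:**
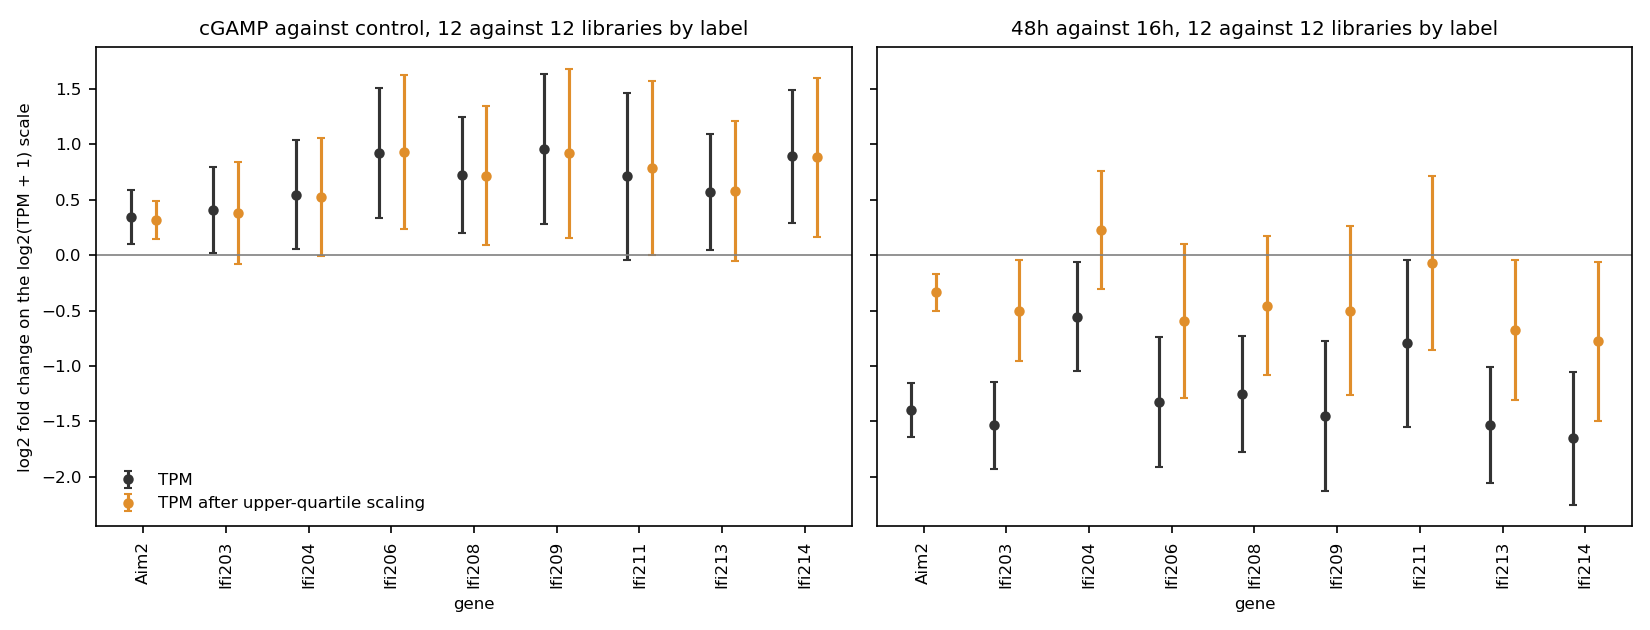
Log2 fold change on the log2(TPM + 1) scale (vertical axis, error bars of 1 SE from limma) of the 9 tested members, cGAMP against control on the left and 48h against 16h on the right, each 12 against 12 libraries by label, on TPM and after upper-quartile scaling. The median of the members for cGAMP was 0.71 on TPM and 0.72 after scaling, while for 48h it was -1.40 and -0.50.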

How the data were processed

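RNA was ribosome-depleted total RNA (stranded TruSeq libraries). The authors trimmed reads with Trimmomatic and assigned them with kallisto to mm10, and the deposited files hold TPM by gene symbol. DESeq2 was used by the authors and not here, since TPM hold no counts. Neither versions nor annotation were given in the sources used here. Depth is unknown, so no counting interval is given.

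limma 3.58.1 (R 4.3.3) was fitted to log2(TPM + 1) with 1 mean for each of the 8 labels and an intensity trend, over the 15720 genes that reached 1 TPM in 3 libraries or more. Calls are at an adjusted p under 0.05, two-sided. Correlations used the permutation test, with the adjustment over all tested genes in place of the members alone, as first planned. Both were tested on simulated data. The study describes its replicates as coming from separate experiments. With the labels in doubt, the 3 libraries of a label may not be such replicates. Deviations of same-numbered libraries correlated above 0.1 in 2 of 12 pairs, and the numbers were not taken to pair libraries. As this check rests on the doubted labels, it cannot exclude that libraries are paired.

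The members and gene lists were chosen with earlier results of these data known. Values in every library are given for Aim2, Ifi209 and Ifi203 (Aim2 and the highest means), and the member with the smallest p is named in each comparison.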

Additional observations from a re-analysis of the deposited data

How the results depend on the processing

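The count of 0 called members held for cGAMP against control (each condition and the average), TH9 against TH1 and both differences of effects under pseudocounts of 0.1 and 10, no filter, a mean of at least 2 TPM, both scalings and without any 1 library, and for the 4 single conditions with only the libraries compared. For 48h against 16h, 5 members were called. The count was 3 with no filter, 7 with a mean of at least 2 TPM, and 0 under upper-quartile scaling and without the 20 most abundant symbols, and 4 to 7 when 1 library was left out. With the replicate number as a block it was 4 (Ifi208 lost, limma adjusted p = 0.0508), and the block gave 0 called members in every other comparison. For the interferon list, 8 members were called, 2 as deviations from label means and 0 within replicate number 1, 2 or 3 alone, where 8 libraries limit the adjusted p. The r of Aim2 was -0.015 after upper-quartile scaling and -0.24 as deviations from label means. Its median r with the 9 Ifi members was 0.11, and -0.083 after upper-quartile scaling, an alternative chosen after seeing the data. The causes of these changes were not tested. The depth of the libraries is unknown, and the fold changes hold only as far as the labels do.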
